A study of Mus musculus with 12 samples.

Results

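The cytosolic ribosomal protein genes of MB114 cells, a mouse line labelled as microvascular endothelial, were followed while the cells were cultured on Matrigel, a gel of basement membrane proteins on which endothelial cells form capillary-like networks. Members were chosen by gene symbol: every probe set, the group of probes that reports a transcript on an Affymetrix array, whose only symbol is that of a cytosolic ribosomal protein. The rule gave 100 of 22690 probe sets, which stood for 48 of 12393 named genes. RNA came from cells kept on the gel for 1, 5, 15 or 25 h, 3 biological replicates for each time by the labels, numbered 1 to 3, with 1 array for each of the 12 samples. All samples shared the cell line, a split 24 h before plating and the gel, and cells kept off the gel were not analysed here, so the 1 h arrays are the baseline. Signals were deposited as linear MAS5 intensities. A gene was tested where a probe set of it had a signal of 183.1 or more, the median over all arrays, on 3 or more of the 12, and its brightest such probe set then stood for it. Of the 100 probe sets 83 passed and 17 did not, and of the 48 genes 44 were tested. The 4 others were Rpl27a, with 2 dim probe sets (mean signals 103.9 and 10.2), Rpl39l (10.4), Rpl3l (18.2) and Rps4l (2.63). A further 102 probe sets list a ribosomal protein among several symbols, and 91 of these passed. They are no members and name no gene, but they are given beside the members where they bear on a result. Among them a probe set that lists Rpl27a had a mean signal of 7362.5. A further 27 ribosomal protein symbols were seen only on such probe sets, so these are not among the 44 tested genes.

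Ribosomal proteins form the small (Rps) and large (Rpl) subunits of the ribosome together with ribosomal RNA, and each is needed in about equal amounts. Their mRNAs are long-lived and abundant in growing cells, and most begin with a 5′ terminal oligopyrimidine (TOP) tract, a C followed by an unbroken run of C and T, through which the mTOR kinase and Larp1 adjust their translation. Cells can therefore change ribosome output at translation or at ribosome assembly in the nucleolus, neither of which an array of total RNA reads directly.

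The annotated start sites were searched for this tract in RefSeq's mouse promoter table (build GRCm38.p6), in which 42 of the 48 genes were found, with 50 starts. A C at the start followed by 4 bases that were each C or T, read on the gene's own strand, stood at 8 of 50 starts (16.0%), against 823 of 32851 starts of all genes (2.51%). A run of at least 5 such bases that came within 5 bases of the start was present at 27 of 50 starts (54.0%), against 31.43% of all starts. The windows below hold 15 bases before and 15 from the annotated start, 5′ to 3′, and capitals mark that run. They are shown for the 6 genes that passed a test of time, for Rps27, the relative of the most changed gene, and for Rplp2 and Rpl38, 2 bright genes whose start matched the stricter pattern.
Rps27l chr9:66946071-66946100, plus strand: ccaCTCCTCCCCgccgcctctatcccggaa
Rps27 chr3:90213634-90213663, minus strand: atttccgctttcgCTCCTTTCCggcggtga
Rpl7l1 chr17:46782642-46782671, minus strand: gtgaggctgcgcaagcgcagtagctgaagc
Rpl12 chr2:32961697-32961726, plus strand: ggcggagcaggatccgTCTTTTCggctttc
Rps25 chr9:44407699-44407728, plus strand: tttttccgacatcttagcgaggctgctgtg
Rpl10a chr17:28328456-28328485, plus strand: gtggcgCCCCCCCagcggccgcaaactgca
Rps6 chr4:86857353-86857382, minus strand: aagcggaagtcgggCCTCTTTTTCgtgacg
Rplp2 chr7:141447636-141447665, plus strand: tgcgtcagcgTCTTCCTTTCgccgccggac
Rpl38 chr11:114668565-114668594, plus strand: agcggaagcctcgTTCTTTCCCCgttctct
Of these, Rps27, Rps6, Rplp2 and Rpl38 had the stricter pattern at the annotated start. Rps27l, Rpl12 and Rpl10a had a run near it, and neither Rpl7l1 nor Rps25 had one within 5 bases of the start. Rps27l and Rpl10a each have another annotated start with no run. These are matches of letters at annotated starts, which can lie some bases from the start a cell uses.

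The ribosomal protein genes were among the brightest on the arrays: 33 of the 44 had a mean signal of 4000 or more over 12 arrays, and 42 of 44 reached the filter on all 12. The brightest were Rps2 (mean 17379), Rps28 (17289) and Rpl41 (15514), and the dimmest tested were Rpl39 (383), Rps6 (293) and Rpl14 (221). Signals of different probe sets depend on the probes as well as on the transcript, so this order ranks probe sets and not transcripts. The 100 probe sets together took 3.21 to 4.74% of the summed signal of an array. Over the 12 arrays Rpl38, a protein known for its part in translation of Hox mRNAs, varied least (SD of log2 signal 0.15), followed by Rps24 (0.17) and Rps9 (0.18). Rps27l (0.65), Rpl39 (0.52) and Rpl22l1 (0.51) varied most.

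**Figure D1:**
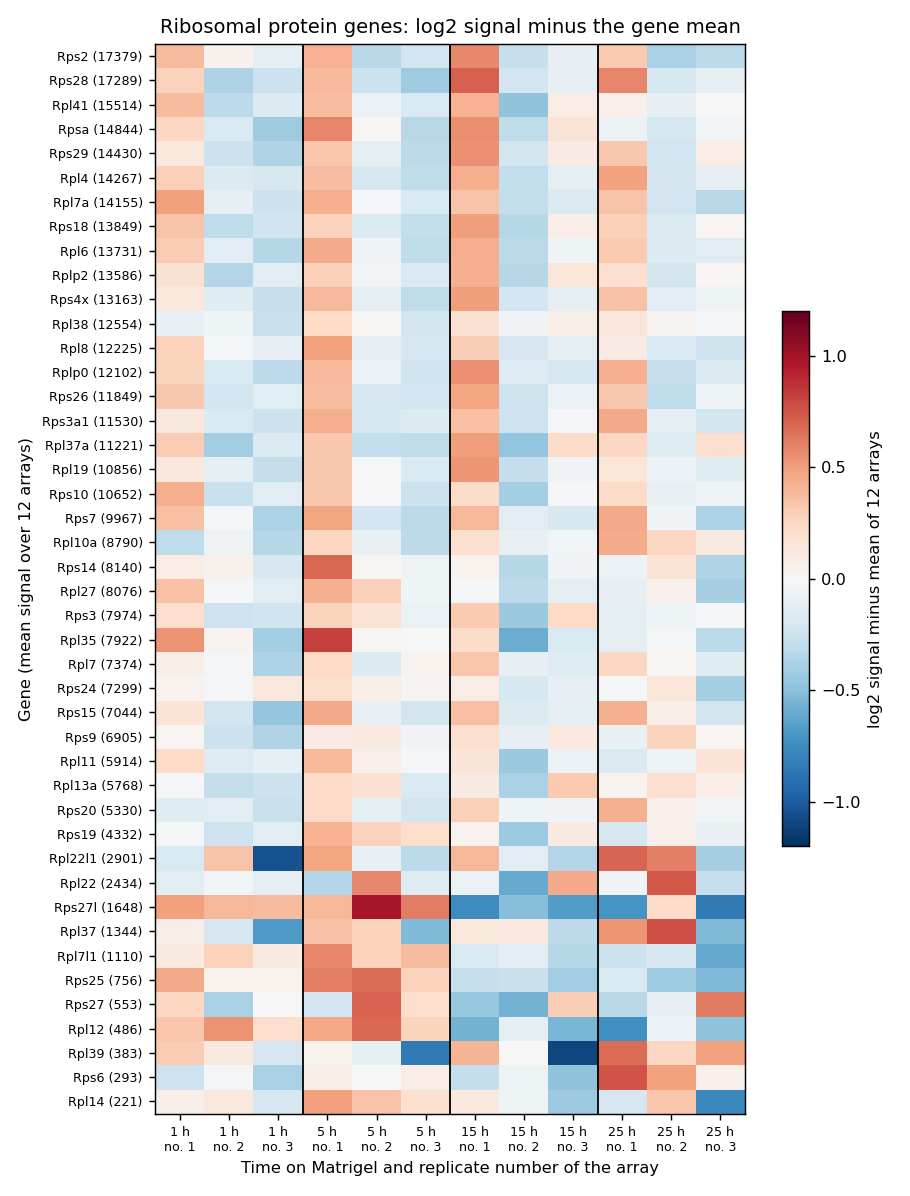
Log2 signal of the 44 tested ribosomal protein genes on each of 12 arrays minus the gene's mean, with genes in order of mean signal (in brackets) and arrays by time on Matrigel and replicate number. The 4 columns numbered 1 are red for most bright genes, and the rows of Rps27l, Rpl7l1, Rps25 and Rpl12 are mostly red at 1 and 5 h and mostly blue at 15 and 25 h.

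The signals of these genes followed the replicate number of the array. Members took 4.25, 3.51 and 3.21% of the summed signal on replicates 1, 2 and 3 of the 1 h arrays. The shares were 4.74, 3.82 and 3.39% after 5 h, 4.65, 3.25 and 3.67% after 15 h, and 4.28, 3.82 and 3.46% after 25 h. The array numbered 1 was the highest at each time, and the ranges of the 4 times overlapped. On the arrays numbered 1 the median member was 1.33-fold higher than on replicates 2 and 3 of the same time, and 40 of 44 genes were higher. By time, from 1 to 25 h, the ratio was 1.31, 1.38, 1.37 and 1.22. Rps28 (1.67-fold), Rps2 (1.55-fold) and Rps7 (1.55-fold) led, whereas Rps27, Rpl22, Rps27l and Rpl12 were lower on the arrays numbered 1. Among the 307 other genes of mean signal 4000 or more the median ratio was 1.14, and over all 7379 tested genes it was 1.00. The same 4 arrays carried the highest signals of the 18S rRNA 3′ control, 710.3 to 2557.5 against 101 to 178.4 on the other 8, and the part of this difference in the members' signals was not tested.

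**Figure D2:**
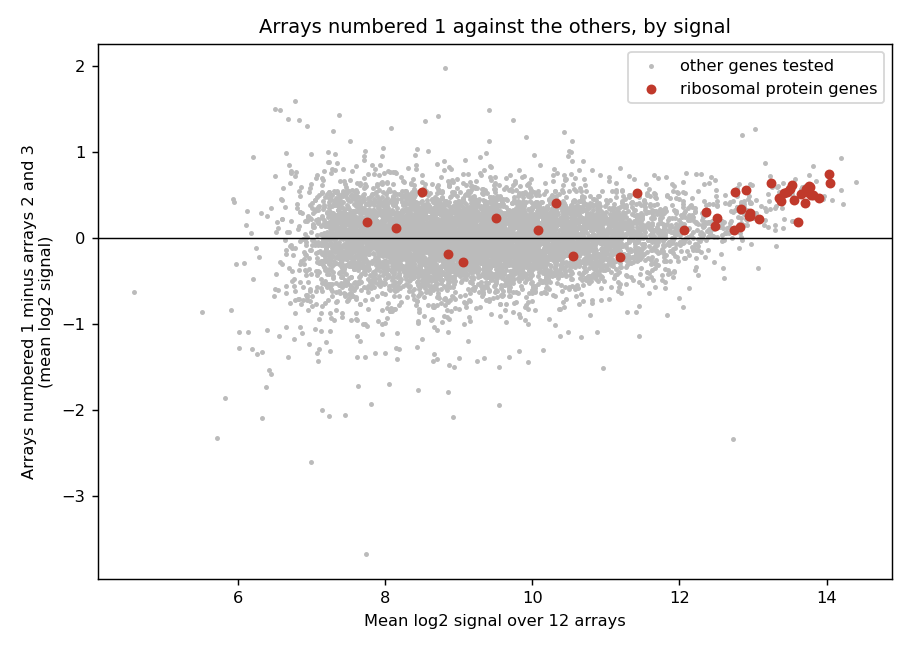
Mean log2 signal of the 4 arrays numbered 1 minus that of the 8 other arrays (y axis) against mean log2 signal over 12 arrays (x axis), for the 44 ribosomal protein genes (red) and all other tested genes (grey). The bright ribosomal protein genes lie above 0, at a median ratio of 1.33 over all 44.

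The same-numbered arrays shared more than these genes: over all tested genes each of the 12 arrays was closest to an array of its own number. Same-numbered samples were therefore taken as paired, and a fit with the number as a block is given beside the one without it. With the block the median residual SD of a member within times fell from 0.32 to 0.15 on the log2 scale. Markers of cell type were checked against the label. Of 15 endothelial markers 3 passed the brightness filter. The endothelial adhesion molecule Pecam1 (mean signal 17.9), the receptor Tie1 (1.89) and von Willebrand factor Vwf (1.7) were near the floor. Other endothelial markers were brighter: Tek had a mean of 57.95, Kdr 135.8, Cdh5 180.9, Flt1 288.8 and Cd34 531.2, beside the filter level of 183.1. Of 11 fibroblast markers 9 passed, with the collagen Col1a2 at 19436, as did 5 of 8 pericyte and smooth muscle markers, 2 of 7 leukocyte markers and 0 of 5 epithelial markers. Summed signals at 1 and 25 h ran from 1118 to 1664 and 1404 to 2218 for endothelial, 71053 to 91193 and 86140 to 129381 for fibroblast, 9189 to 22692 and 4082 to 6896 for pericyte and smooth muscle, and 2315 to 5442 and 7058 to 10883 for leukocyte markers. The 2 leukocyte markers that passed went opposite ways from 1 to 25 h, with log2 changes of 2.86 and -1.57. Another leukocyte marker, Ptprc, had a mean signal of 21.99, so the leukocyte sum does not stand for the list. The part of these shifts in the results was not tested, and in such bulk samples fewer cells of a type and less RNA per cell cannot be told apart.

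Most ribosomal protein genes did not pass the test of any comparison with 1 h. Changes were tested with limma over all 12 arrays, with Benjamini-Hochberg adjustment over 7379 genes, and a gene counted as called where the adjusted p lay under 0.05. The moderated F test, which asks for any difference between the times, called 4 of the 44 genes, where it called 34.9% of all tested genes: Rps27l (adjusted p = 0.00272), Rps25 (0.00396), Rpl12 (0.00542) and Rpl7l1 (0.0077). With the replicate block 7 did, where 55.1% of all genes did, and the added genes were Rpl10a, Rpl39 and Rps6. The 3 comparisons with 1 h share their 1 h arrays, so their results are set side by side and not correlated.

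At 5 h 0 of 44 genes were called by limma, in a comparison that called 1.65% of all tested genes, and 1 of 44 had an unadjusted p under 0.05, where 13.8% of all genes did. With the block the count was also 0, where 7.77% of all genes were called. Groups did not overlap for 3 genes, where 18.5% of all genes did not. The median log2 change was 0.14, beside 0.042 over all tested genes. Of the 44 changes 39 were above 0, a share not counted over all tested genes. Members share their arrays, so these are not 39 separate observations. The medians within replicates 1, 2 and 3 were 0.15, 0.12 and 0.07. Leaving out replicate 1 at 5 h lowered the median to 0.0017, and leaving out replicate 1 at 1 h raised it to 0.26. The 95% interval lay within a 2-fold change either way for 41 of 44 genes, and for all 44 with the block.

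Rps19, a small subunit protein mutated in Diamond-Blackfan anaemia, was the gene with an unadjusted p under 0.05 at 5 h. Its signals were 4233.4, 3591.8 and 3922.6 at 1 h, 5721.1, 5173.5 and 4949.7 at 5 h, 4394.5, 3162.5 and 4608.7 at 15 h and 3719.6, 4472.5 and 4030.1 at 25 h. The 5 h arrays stood above every array of the other times. The log2 change at 5 h was 0.43 (95% interval 0.07 to 0.79), with a limma adjusted p of 0.27. From 5 to 15 h it was -0.40, with an adjusted p of 0.124, and 0.0476 with the block.

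At 15 h 2 of 44 genes were lower than at 1 h and 0 higher, in a comparison that called 23.8% of all tested genes (15.4% higher and 8.44% lower). The genes were Rps27l and Rpl12. The median log2 change was 0.053, beside 0.12 over all genes, and the medians within replicates 1, 2 and 3 were 0.12, -0.14 and 0.22. With the block 2 were higher (Rps28 and Rps29, by 0.25 and 0.31 on the log2 scale) and 4 lower (Rpl7l1 and Rps25 added), where 25.1% of all genes were higher and 15.1% lower, 40.2% in all. Without replicate 1 or 2 at 1 h, or without replicate 1 or 3 at 15 h, 1 was called. Groups did not overlap for 6 of 44 genes, where 40.8% of all genes did not. The interval lay within 2-fold for 40 of 44.

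At 25 h 2 genes were higher than at 1 h (Rps6 and Rpl10a) and 4 lower (Rps27l, Rpl12, Rps25 and Rpl7l1), in a comparison that called 36.7% of all genes (21.6% higher and 15.1% lower). The median log2 change was 0.066, beside 0.13 over all genes, with -0.029, 0.1 and 0.15 within replicates 1, 2 and 3. With the block 6 were higher (Rpl22l1, Rpl37, Rps15 and Rps20 added) and 4 lower, where 30.2% of all genes were higher and 21% lower, 51.2% in all. The count was 2 without replicate 1 at 1 h or replicate 1 at 25 h, and 3 without replicate 2 at 25 h. Without all 4 arrays numbered 1 it was 0 in each comparison, where 0.0407% of all genes were still called at 5 h, 6.37% at 15 h and 21.1% at 25 h; with those arrays left out and the block in the fit, 0, 2 and 4 members were called, where 2.06, 26.3 and 38.2% of all genes were. The 2 at 15 h were Rps27l and Rpl12. At 25 h they were Rpl12, Rpl7l1, Rpl10a and, as an added gene, Rps9 (higher, limma adjusted p = 0.0374), whereas Rps27l, Rps25 and Rps6 were not called. Groups did not overlap for 9 of 44 genes, where 48.3% of all genes did not, and the interval lay within 2-fold for 38 of 44, or 40 with the block.

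**Figure D3:**
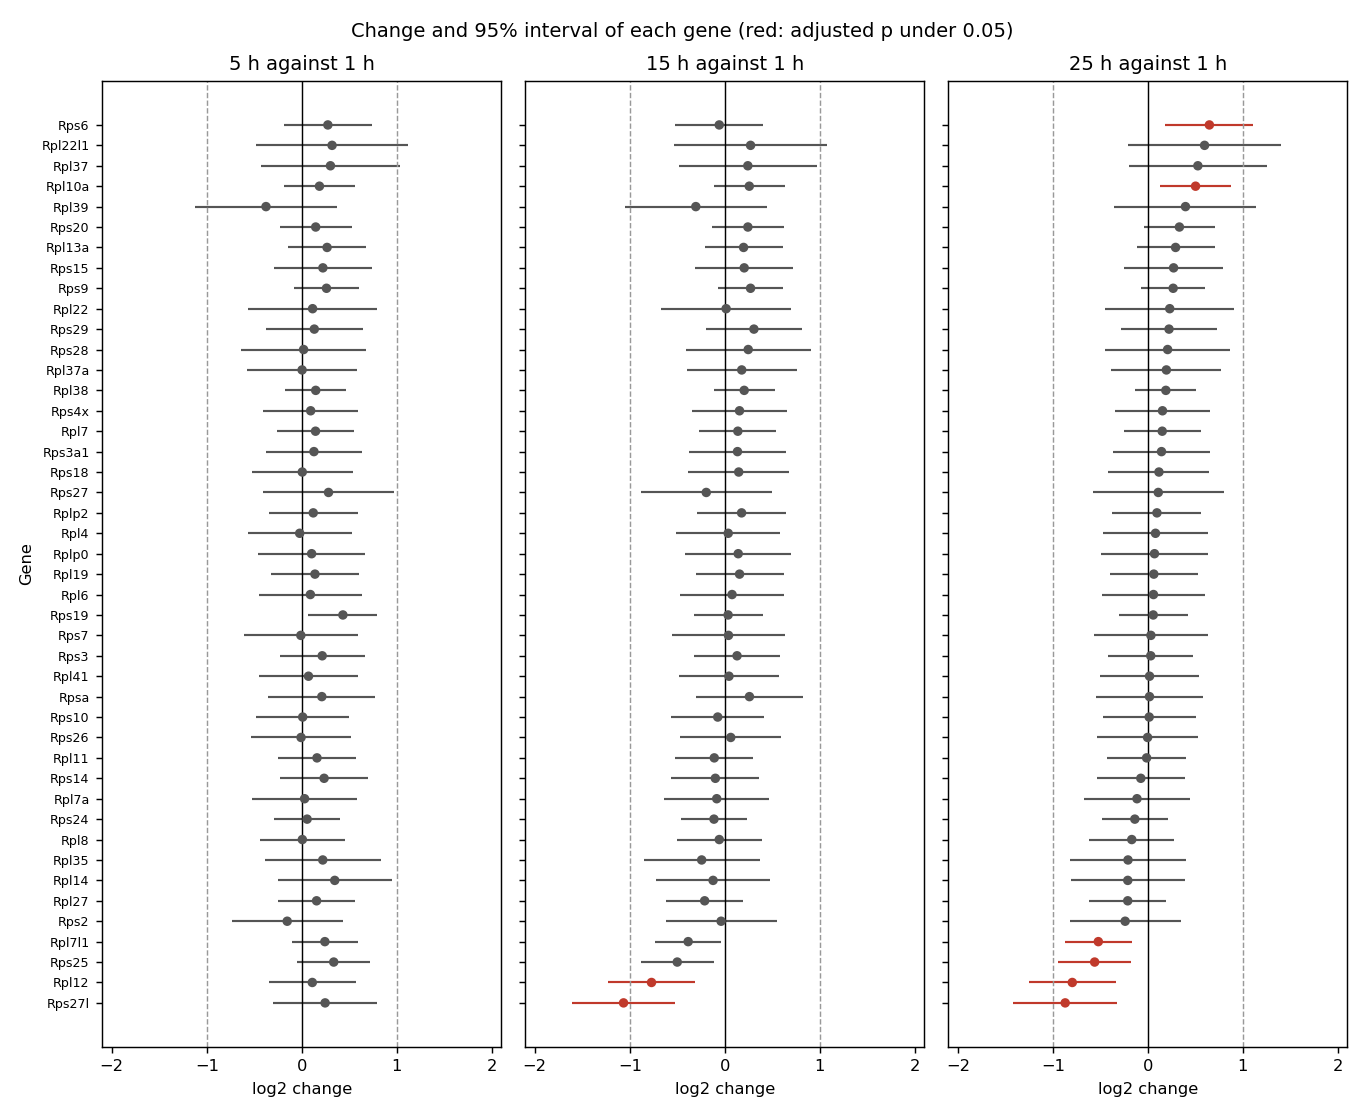
Log2 change (points) and 95% interval (bars) from limma for each of the 44 ribosomal protein genes at 5, 15 and 25 h against 1 h, in red where the adjusted p was under 0.05, with dashed lines at a 2-fold change. No gene is red at 5 h, 2 are at 15 h and 6 at 25 h, and most intervals lie between the dashed lines.

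From 5 to 15 h 4 genes fell (Rps27l, Rpl12, Rps25 and Rpl7l1) and 0 rose, in a comparison that called 14.5% of all genes (8.73% higher and 5.75% lower). The median log2 change was -0.022, beside 0.074 over all genes. Without replicate 1 or replicate 3 at 15 h 2 were called. With the block 6 fell (Rpl27 and Rps19 added), where 19.4% of all genes were higher and 13.4% lower, 32.7% in all. Groups did not overlap for 7 genes, where 35.4% of all genes did not. From 15 to 25 h 0 members were called, where 0.772% of all genes were, 1 of 44 had an unadjusted p under 0.05 (8.98% of all genes did), and the median log2 change was -0.0025. With the block Rps6 was called (adjusted p = 0.0491), where 4.26% of all genes were, and groups did not overlap for 1 gene, where 14.2% of all genes did not.

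By subunit, at 25 h the 21 tested large subunit genes had a median log2 change of 0.07 (from -0.80 to 0.53) and the 20 small subunit genes 0.083 (from -0.56 to 0.65), each with 1 gene higher and 1 lower. At 5 h the medians were 0.12 and 0.14, and at 15 h 0.043 and 0.095. The 3 tested paralogues, genes named as like another ribosomal protein, held 2 of the 4 genes that were lower at 25 h. The classes were not compared by a test. For each of the 6 called genes the groups did not overlap in any comparison that called it. All 3 same-numbered pairs of arrays then share the direction by necessity, which adds no support.

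Rps27l, a p53 target that resembles the small subunit protein Rps27, fell the furthest. It read 2126.4, 1983 and 1956.2 at 1 h, 1985.5, 2990.2 and 2313.1 at 5 h, 891.6, 1060.4 and 950.1 at 15 h, and 913.9, 1766.6 and 836.9 at 25 h. All 15 h arrays stood below all 1 h and 5 h arrays, and at 25 h replicate 2 stood apart from the other two but still below every 1 h array. The mean was 2022 ± 91.5 (SD, n = 3) at 1 h and 967 ± 85.7 at 15 h, a 2.09-fold fall (log2 change -1.07, 95% interval -1.61 to -0.52, adjusted p = 0.00948). From 5 to 15 h the fall was 2.48-fold (adjusted p = 0.00625), and at 25 h it was 1.83-fold against 1 h (adjusted p = 0.0166). The call at 25 h was lost without replicate 1 at 1 h, or without replicate 1 or 3 at 25 h (adjusted p 0.0517 to 0.0699), and the calls at 15 h held without each array in turn.

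The 3 probe sets of Rps27l went the same way, but all 3 are of a class whose probes can be shared between transcripts. Their agreement is therefore not independent support. At 15 h against 1 h their log2 changes were -1.07, -0.78 and -0.60, with limma adjusted p over 11652 probe sets of 0.0125, 0.0796 and 0.169, and 0.00152, 0.0107 and 0.0282 with the block. At 25 h they were -0.87, -0.81 and -0.68, with adjusted p of 0.02, 0.0499 and 0.0949, the last 0.0118 with the block. Replicate 2 at 25 h was the highest of its time in all 3. Its relative Rps27 had signals of 632.3, 405.4 and 528.9 at 1 h and 420.9, 495.4 and 816.5 at 25 h. Those groups overlapped, and its log2 change was 0.11 (95% interval -0.58 to 0.80, adjusted p = 0.81). A brighter probe set that lists Rps27 among several symbols (mean signal 7663) gave 0.43 (limma adjusted p = 0.122, and 0.0279 with the block). The difference between the paralogues was not tested.

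Rpl7l1, a relative of Rpl7 linked to assembly of the large subunit, had signals of 1171.5, 1313.2 and 1164.1 at 1 h, 1610.9, 1309.9 and 1404.9 at 5 h, 950.8, 990.3 and 852.2 at 15 h, and 904.3, 945.7 and 708.2 at 25 h. The 15 and 25 h arrays all lay below the 1 and 5 h arrays. It fell 1.55-fold from 5 to 15 h (limma adjusted p = 0.0231) and was 1.44-fold lower at 25 h than at 1 h (-0.52, 95% interval -0.87 to -0.17, adjusted p = 0.0233). Its other probe set was also lower at 25 h (-0.56, adjusted p = 0.0309). The call at 25 h was lost without replicate 2 at 1 h (0.0771), without replicate 3 at 25 h (0.0935) and in a fit of only the 6 arrays of both times (0.0577). The call for 5 to 15 h was lost without replicate 1 or 3 of either time (0.054 to 0.0856). For Rpl7, a large subunit protein that binds RNA, the log2 change at 25 h was 0.15 (95% interval -0.25 to 0.56).

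Rpl22l1, the relative of Rpl22, had signals of 2416.2, 3482 and 1326.9 at 1 h and 4455.2, 4162.2 and 2080.5 at 25 h. Replicate 3 was the lowest at both times, the groups overlapped, and each replicate was higher at 25 h than at 1 h. The log2 change was 0.60 (95% interval -0.21 to 1.40), with an adjusted p of 0.23, and 0.0271 with the replicate block. For Rpl22 the 2 probe sets differed: the brighter gave 0.23 (adjusted p over probe sets = 0.618), and the dimmer read 654.1, 707.6 and 734.9 at 1 h, 379.5, 569 and 441.5 at 5 h, 783.8, 795.1 and 889.6 at 15 h and 1148.2, 1333.9 and 1497.2 at 25 h. The dimmer was lowest at 5 h and highest at 25 h with no overlap. Its log2 change was 0.92 from 1 to 25 h (adjusted p = 0.00235) and 0.85 from 5 to 15 h (adjusted p = 0.0129). The paralogues Rpl39l, Rpl3l and Rps4l were too dim to test. Rps4x, the relative of Rps4l, had a log2 change of 0.15 at 25 h (95% interval -0.35 to 0.66). For Rpl39, the relative of Rpl39l, it was 0.40 (-0.35 to 1.14).

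**Figure D4:**
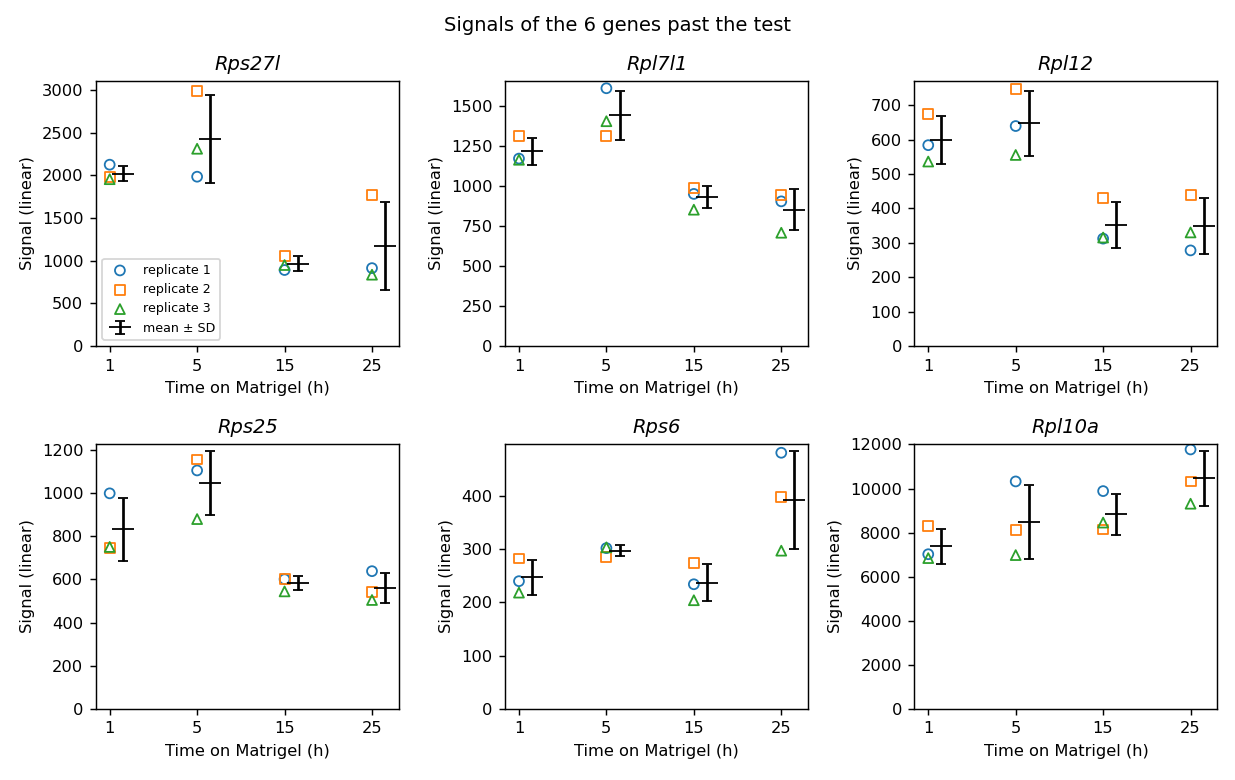
Signal (linear scale from 0) of the 6 genes past the test in a comparison with 1 h, against time on Matrigel, with 1 marker for each of 3 replicates and the mean ± SD beside them. Rps27l, Rpl7l1, Rpl12 and Rps25 are lower at 15 and 25 h than at 5 h, Rps6 and Rpl10a are highest at 25 h, and replicate 2 of Rps27l at 25 h stands at 1766.6.

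Rpl12, a large subunit protein at the base of the stalk, had signals of 583.7, 673.1 and 536.2 at 1 h, 639.3, 746.1 and 555.3 at 5 h, 312.2, 429.8 and 315.4 at 15 h, and 278, 439 and 330.2 at 25 h. All later arrays lay below the 1 and 5 h arrays. The probe set was 1.71-fold lower at 15 h (limma adjusted p = 0.02) and 1.74-fold lower at 25 h than at 1 h (adjusted p = 0.0108), and 1.84-fold lower at 15 than at 5 h (adjusted p = 0.0175). At 15 h the call against 1 h was lost without replicate 1 or 2 at 1 h, or without replicate 1 or 3 at 15 h (0.0517 to 0.0728), and at 25 h without replicate 1 at 25 h (0.0513). The call for 5 to 15 h was lost without replicate 2 at 5 h, or without replicate 1 or 3 at 15 h (0.0584 to 0.0673). Rpl12 is also listed among several symbols by 2 far brighter probe sets, of mean signal 7665 and 10838. These were not called, with log2 changes of -0.17 and 0.10 at 25 h and 0.018 and 0.0054 at 15 h.

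Rps25, a small subunit protein used by viral internal ribosome entry sites, had signals of 999.6, 746.6 and 750.9 at 1 h, 1105.9, 1156.6 and 880.2 at 5 h, 601.3, 603.9 and 544.7 at 15 h, and 638.5, 542.5 and 504.8 at 25 h. The later arrays again lay below all earlier ones. It fell 1.78-fold from 5 to 15 h (limma adjusted p = 0.00955), a call kept without each array in turn, and was 1.47-fold lower at 25 h than at 1 h (adjusted p = 0.0255). The call at 25 h was lost without replicate 1 at 1 h (0.11), and without replicate 2 or 3 at 25 h (0.0663 and 0.0827). It was also lost in a limma fit of only the 6 arrays of both times (adjusted p = 0.0582). The probe set that lists Rps25 among several symbols, of mean signal 3580, gave -0.097 at 25 h and -0.44 from 5 to 15 h, and was not called (limma adjusted p = 0.793 and 0.25). With the block its fall from 5 to 15 h was called (adjusted p = 0.0373), and its change at 25 h was not (0.606).

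Rps6, the small subunit protein phosphorylated by S6 kinase, had signals of 239.7, 282.3 and 218.2 at 1 h, 301.8, 285.2 and 303.2 at 5 h, 233.9, 273.9 and 203.9 at 15 h, and 480.9, 397.1 and 297 at 25 h. The 25 h arrays lay above those of 1 and 15 h, and replicate 3 at 25 h lay within the 5 h range. The log2 change at 25 h was 0.65 (95% interval 0.18 to 1.11, limma adjusted p = 0.0318). The call was lost without replicate 1 or 3 at 1 h, or without replicate 1 or 2 at 25 h (0.0783 to 0.134). This probe set is dim for a ribosomal protein gene, with a mean of 293, whereas 8 probe sets that list Rps6 among several symbols reach mean signals of 220.9 to 15864. None of the 8 was called at 25 h, and their log2 changes ran from -0.11 to 0.17.

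Rpl10a, a large subunit protein of the L1 stalk, was the called gene among the bright members. Its signals were 7017.3, 8302.2 and 6841.8 at 1 h, 10322.4, 8136.8 and 6978.5 at 5 h, 9883.9, 8141.4 and 8454.2 at 15 h, and 11774.8, 10319.2 and 9310.7 at 25 h. All 25 h arrays stood above the 1 h arrays, and overlapped those of 5 and 15 h. It was 1.42-fold higher at 25 h than at 1 h (limma adjusted p = 0.037, and 0.00341 with the block). The call was lost without replicate 1 or 3 at 1 h, or without replicate 1 or 2 at 25 h (0.0756 to 0.125).

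Genes with other known roles did not pass the test against 1 h. Rplp0 and Rplp2, of the stalk that recruits elongation factors, had log2 changes at 25 h of 0.07 (95% interval -0.49 to 0.63) and 0.095 (-0.37 to 0.56). Rpsa, also known as a laminin receptor, had 0.017 (-0.55 to 0.58), from 13560 ± 3286 at 1 h to 13481 ± 857 at 25 h (SD, n = 3). Rpl11, which joins the 5S RNA particle and binds Mdm2, had -0.013 (-0.43 to 0.40). All 4 intervals lie within a 2-fold change either way and include smaller changes in both directions.

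Of the rest, Rpl4, a protein that lines the peptide exit tunnel, had a log2 change at 25 h of 0.08 (95% interval -0.47 to 0.63). For Rps3, also a DNA repair protein, it was 0.03 (-0.42 to 0.48), and for Rps14, mapped to the deletion of 5q- syndrome in humans, -0.074 (-0.54 to 0.39). Rpl13a, a protein of translational silencing in inflammation, and Rpl38 gave 0.29 (-0.12 to 0.70) and 0.19 (-0.13 to 0.51). Their 1 h and 25 h groups did not overlap, and neither was called (adjusted p = 0.25 and 0.341). Rps20, a small subunit protein, read 4779.7, 4817.5 and 4385.7 at 1 h and 7067.8, 5512.5 and 5167.5 at 25 h. Every 25 h array lay above every 1 h array, and the log2 change of 0.33 (-0.046 to 0.71) had an adjusted p of 0.156, and 0.0218 with the block.

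Probe sets of the same protein differed. Among the 83 member probe sets that passed, 3 were higher and 9 lower at 25 h than at 1 h by limma, in a fit that called 32.3% of 11652 probe sets. With the replicate block 14 were higher and 12 lower, where 46.4% of all were called, so the balance of falls over rises did not hold there. At 5 h 0 were called (1.07% of all), and with the block 1 was higher and 1 lower (5.42%). At 15 h 0 were higher and 4 lower (19.1%), and with the block 3 and 9 (34.8%). From 5 to 15 h 1 was higher and 6 lower (11.6%), and with the block 1 and 13 (27.8%). From 15 to 25 h 0 were called (0.541%), and with the block 2 were higher and 0 lower (3.02%). Besides those of the 6 genes and Rpl22, the ones called at 25 h without the block were dim probe sets of Rpl41, Rps10 and Rps9, whose brighter probe sets gave no call. For Rpl41 the dim set read 560, 495.9 and 508.6 at 1 h and 254, 190.5 and 296.3 at 25 h, a 2.14-fold fall (adjusted p = 0.00288). The bright Rpl41 set, of mean signal 15514, had a log2 change of 0.018. For Rps10 the dim set read 414.5, 327.1 and 255.7 at 1 h and 89.4, 114 and 119.9 at 25 h, the latter all under the filter level of 183.1, and the log2 changes of its 5 brighter sets ran from 0.0091 to 0.78. The dim Rps9 set read 228.1, 193.3 and 263.4 at 1 h and 145.9, 105.8 and 141.8 at 25 h, and its bright set gave a log2 change of 0.27. The dim sets of Rps10 and Rps9 reached the filter on 5 and 4 of 12 arrays, all of them 1 or 5 h arrays. They passed only through the times at which they were higher, so their calls were set in part by the filter and no fold is given here.

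Taking member and several-symbol probe sets together, 119 had a mean signal of 4000 or more, 30 lay from 1000 to 4000 and 25 below 1000, limits set after the values were seen. At 25 h 1 of the 119 was higher and 0 lower, 0 of the 30 were higher and 4 lower, and 2 of the 25 were higher and 9 lower, in a fit that called 32.2% of 12056 probe sets. With the block, in a fit that called 46.4% of all, 13 of the 119 were higher and 1 lower, 5 of the 30 were higher and 6 lower, and 3 of the 25 were higher and 11 lower. Of the 25 dim probe sets 14 reached the filter on all 12 arrays, and of the 9 that were lower without the block 5 did. The others could pass through the times at which they were higher, so the counts of the dim class describe the probe sets that passed and were not compared with the brighter classes.

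**Figure D5:**
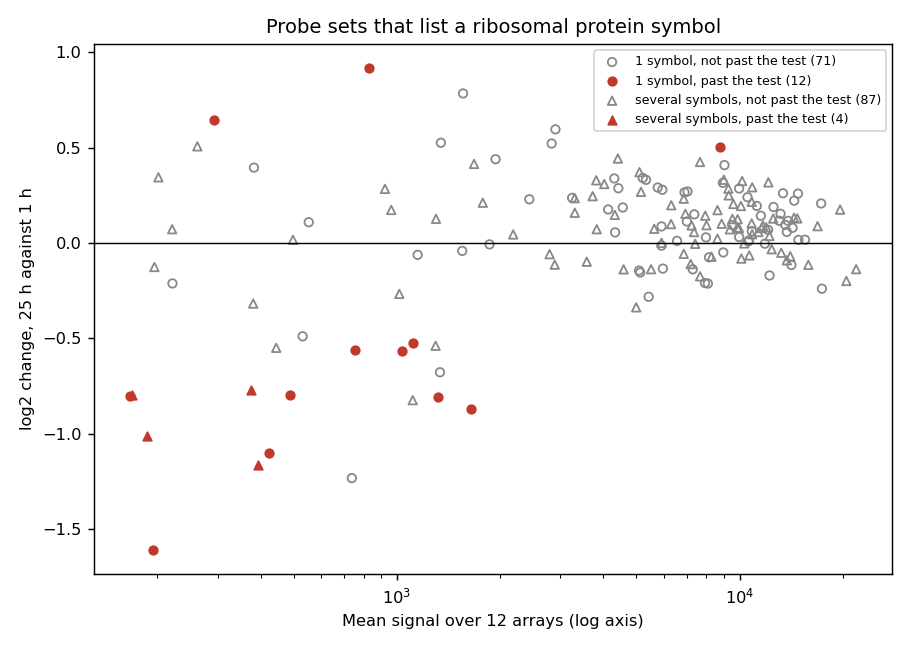
Log2 change from 1 to 25 h (y axis) against mean signal over 12 arrays (x axis, log scale) for 174 probe sets that list a ribosomal protein symbol, circles for 1 symbol and triangles for several, filled red where limma's adjusted p was under 0.05. Of the 119 probe sets at 4000 or more 1 is red, and 9 of the 25 below 1000 are red with a fall, of which 5 reached the filter on all 12 arrays.

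Genes that build ribosomes or control their use were read beside the ribosomal proteins, from lists chosen with earlier results of these data known. At 25 h 21.6% of all tested genes were higher and 15.1% lower, or 30.2 and 21% with the block, and the counts of each list stand beside these shares. Of 28 tested genes of nucleolar ribosome biogenesis 24 fell between 1 and 25 h and 0 rose, with a median log2 change of -1.12. Fibrillarin, Fbl, which methylates ribosomal RNA, went from 3170 ± 195 to 1134 ± 133 (SD, n = 3; log2 change -1.49, limma adjusted p = 5.33e-05), and Nop58, of the same particle, from 2088 ± 117 to 583 ± 60.4 (-1.84, adjusted p = 1.07e-05). At 15 h 21 of 28 were already lower, where 8.44% of all tested genes were. With the block 23 of 28 were lower at 15 h, where 15.1% of all genes were, and 25 of 28 at 25 h. Of 17 genes for ribosomal protein chaperones and subunit export 10 were lower at 25 h and 0 higher, both without and with the block, with a median of -0.78. They included the Rpl3 chaperone Grwd1 (-1.44, adjusted p = 0.00041), the 5S particle loader Rrs1 (-1.52, adjusted p = 0.00144), the small subunit factor Bysl (-1.77, adjusted p = 1.87e-05) and Eif6, which keeps the subunits apart (-0.78, adjusted p = 0.00165). Against these counts stood 2 higher and 4 lower of the 44 ribosomal protein genes, with a median of 0.066. The lists were not compared by a test.

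Other genes with TOP mRNAs, mostly translation factors and RNA-binding proteins, gave 5 lower and 0 higher of 19 at 25 h (26.3% called, where 36.7% of all genes were), with a median log2 change of 0.018. With the block 5 were lower and 3 higher (Eif3f, Eif4a2 and Nop53). The lower ones without it were Hnrnpa1 (-0.87), Eif2s3x (-0.67), Nap1l1 (-0.79), Eef1d (-0.62) and Npm1 (-0.89), the last of which is also a nucleolar protein. Of 18 genes that control TOP mRNAs and growth 4 were lower and 0 higher at 25 h (22.2% called), and with the block 6 were lower and 3 higher (Deptor, Rps6kb2 and Tsc2). The 4 were Mdm2, the p53 ligase (-1.02, adjusted p = 0.00102), Eif4e, the cap-binding protein (-0.91, adjusted p = 0.00264), Larp1 (-0.83, adjusted p = 0.00524) and Myc, a driver of ribosome synthesis (-0.69, adjusted p = 0.014). Of 74 mitochondrial ribosomal protein genes, whose products form the separate ribosome of that organelle, 4 were higher and 11 lower at 25 h (20.3% called), or 8 and 16 with the block, with a median of -0.044. At 5 h 66 of these 74 had a change above 0, with a median of 0.25, beside 0.042 over all tested genes. The share above 0 over all tested genes was not counted, and the 74 genes share their arrays. Of the 74, 0 were called at 5 h, where 1.65% of all genes were. With the block 4 were higher and 0 lower, where 7.77% of all genes were called. Fau, a ribosomal protein made as a ubiquitin-like fusion whose symbol lies outside the naming rule, had a log2 change of 0.20 at 25 h (adjusted p = 0.361).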

How the data were processed

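The deposited file holds 1 linear intensity for each probe set on each array. The authors computed these intensities with MAS5, per the submitters' processing notes; the MAS5 version and settings were not given in the sources used here. Trimmed means (2% from each end) were 500.1 to 500.2 on every array, so no further scaling was applied. Per the labels, each sample gave 6 µg of total RNA for biotinylated cRNA. The number of arrays, 3 per time, limits the precision, and with 3 against 3 the smallest exact permutation p is 0.1. Samples were grouped by title, and 0 sample columns were left unused. Gene symbols came from GEO's platform annotation, which can be old (20380 probe sets with 1 symbol, 691 with several, 1555 with none). The table's 64 control probe sets and 1 probe set with 2 empty values were left out of the tests.

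Signals were log2-transformed and fitted with limma 3.58.1 in R 4.3.3, with 1 mean per time over 12 arrays (8 residual degrees of freedom), eBayes with an intensity trend, and 2-sided tests adjusted by Benjamini-Hochberg over 7379 genes, or over 11652 probe sets (12056 with several-symbol ones). Folds are 2 to the power of the log2 change, and intervals are 95% and unadjusted. Deviations from the time means correlated between same-numbered arrays with r from 0.328 to 0.758 over all genes, and 12 of 12 arrays were closest to their own number. The numbers were therefore taken to pair the samples. The labels give the numbers and do not say what was shared. Over the member genes alone r ran from 0.029 to 0.815 between same-numbered arrays. Between arrays of other numbers and times it ran from -0.647 to 0.324, so these ranges overlapped. Alternatives were the replicate block, other scalings, filters and offsets, other choices of probe set, fewer arrays and each array left out. Scripts were tested on simulated data. Named genes were the members called, the members with set roles or copy suffixes, the extremes of brightness and spread, and the members of other lists with the smallest p. Rps19's course and Rpl27, Rpl37, Rps15, Rps28 and Rps29, called with the block and not in the main fit, were singled out after their values were seen. So were Rps9, Eif3f, Eif4a2, Nop53, Deptor, Rps6kb2, Tsc2 and the dim probe sets of Rpl41, Rps10 and Rps9. Rpl37 was also called at 25 h against 1 h without replicate 3 at 25 h (limma adjusted p = 0.0316). The members and lists were chosen with earlier results of these data known. Promoter windows were read from RefSeq's table with Python 3.11.15.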

Additional observations from a re-analysis of the deposited data

How the results depend on the processing

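The counts of called ribosomal protein genes rest on few arrays and on which probe set stands for a gene; for the changes given here the cause was not tested unless the setting shows it. With the replicate block the counts were 6 in place of 2 at 15 h, 10 in place of 6 at 25 h, 1 in place of 0 from 15 to 25 h and 7 in place of 4 in the F test. It moved no other count of called ribosomal protein genes by over 1.5 times; the counts of probe sets and of the other lists that it moved stand beside those results. Without all 4 arrays numbered 1, which leaves 2 samples per time, 0 were called at 15 h, at 25 h, from 5 to 15 h and in the F test. In a fit of only the 6 arrays compared, 3 were called at 25 h. Where probe sets that list 1 ribosomal protein among several symbols could also stand for it, a choice made after seeing the data that gave 72 ribosomal protein genes, the counts were 1 at 15 h, 3 at 25 h, 2 from 5 to 15 h and 2 in the F test, and with the block added 4 at 15 h and 11 at 25 h. The main fit called 23.8% of all tested genes at 15 h, 36.7% at 25 h, 14.5% from 5 to 15 h and 34.9% in the F test. With the block it called 40.2% at 15 h and 51.2% at 25 h, so no gain is read from these counts. Shares over all genes in the widened, 6-array and leave-one-out fits are not given here, and their counts describe the calls alone. In the widened set Rpl12 turned to 0.0054 at 15 h and 0.10 at 25 h, and Rps6 to -0.11 at 25 h, on the log2 scale. Without probe sets whose probes are shared between transcripts, a setting in which Rps27l and Rpl10a have no probe set, 16 members were left. Their median log2 changes were -0.20 at 15 h, -0.35 from 5 to 15 h and -0.097 at 25 h. Rps10 turned to -1.61 at 25 h and Rps9 to -0.76 at 15 h and -0.80 at 25 h. A dim probe set then stood for each, and it reached the filter only on 1 or 5 h arrays. The values of both genes were thus set in part by the filter. Both also enter the medians of the 16 members, so no fall is read from these values. Leaving out each array in turn gave 1 to 2 calls at 15 h, 2 to 4 from 5 to 15 h, 2 to 6 at 25 h, 4 to 5 in the F test, and 0 to 0 in the comparisons of 5 with 1 h and of 25 with 15 h. The medians then ran from 0.0017 to 0.26 at 5 h, -0.083 to 0.23 at 15 h, -0.0195 to 0.23 at 25 h, -0.21 to 0.14 from 5 to 15 h and -0.09 to 0.17 from 15 to 25 h. Median centring, quantile normalization, other brightness filters, an offset, means over probe sets and a fit without the intensity trend kept each count within 1.5 times. Of single-gene results under the alternatives planned, 4841 kept their side of the threshold, 49 lost a call and 17 gained 1. A further 3 reversed direction with a call in either fit. Results called in neither fit count as kept whatever their direction. The calls of Rpl10a at 25 h were also lost with median centring (adjusted p = 0.0722), without a brightness filter (0.074) and without the intensity trend (0.0517), those of Rps6 with quantile normalization (0.0609), without a filter (0.0516) and with only 6 arrays (0.0717), and that of Rpl7l1 from 5 to 15 h with means over probe sets (0.0522).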
